A study of Mus musculus with 4 samples.

Results

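Regulatory T cells (Tregs) sorted as CD4+Foxp3+ cells from the tracheal lymph nodes (tLN) of Csnk2b-deficient (Csnk2b-/-) and wild-type (WT) C57BL/6 mice were compared. These are 2 of the 4 samples of the series, 1 per genotype. The other 2 samples are Tregs of the same genotypes from the spleen, and they are used here only as a second pair to set beside the lymph node values. The labels' protocols name more than 1 set of kits and do not state which tissue each was used for. If the kits differed between the tissues, kit and tissue cannot be told apart. All mice were 8 weeks old, and all 4 samples are bulk RNA-seq of sorted cells. The labels do not say which exons were deleted, in which cells the deletion was made, how many cells were sorted or whether animals were pooled. The features compared were the 10403 of 28032 gene features with an exon length that had at least 20 exon reads summed over the tLN pair.

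Protein kinase CK2 is a serine/threonine kinase built from catalytic alpha subunits, encoded by Csnk2a1 and Csnk2a2, and a regulatory beta subunit, encoded by Csnk2b, which docks substrates and stabilises the holoenzyme. Tregs depend on the transcription factor Foxp3 and hold other T cells in check. Those that have met antigen take on an effector state with tissue-homing receptors, inhibitory receptors and receptors for alarmins such as interleukin-33, while resting Tregs keep lymph node homing genes and regulators such as Bach2.

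With 1 sample per genotype there is no replicate spread and no p-value. Each ratio is given with a 95% exact binomial interval that covers counting error only, so a difference between mice, sorts or library preparations of the 2 samples cannot be told apart from a difference between genotypes. Levels are exon read counts scaled by library size and TMM factor (CPM). A feature is called higher or lower where the whole interval of the ratio lay beyond 2-fold. A count of 0 was set to a floor of 3 reads for a fold or log2 ratio, whose value then depends on that floor.

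The tLN samples held 4737814 (WT) and 5506113 (Csnk2b-deficient) exon reads, and the spleen samples 6750695 and 4877882. The WT tLN sample stood apart: 12157 features had at least 1 read there, against 14335 in the Csnk2b-deficient tLN sample and 14962 to 15515 in the spleen samples. At the read total of the WT tLN sample, 14140 features would be expected in the Csnk2b-deficient tLN sample and 14889 and 14914 in the WT and Csnk2b-deficient spleen samples. Of features at 2 to 5 CPM in the Csnk2b-deficient tLN sample, 21.7% had no read in the WT tLN sample. The reverse share was 4.66%, and the spleen shares were 0.358% and 0.0857%. At 20 to 50 CPM the share without a read in WT tLN was 0.388%, and at 50 CPM or above it was 0.

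**Figure D1:**
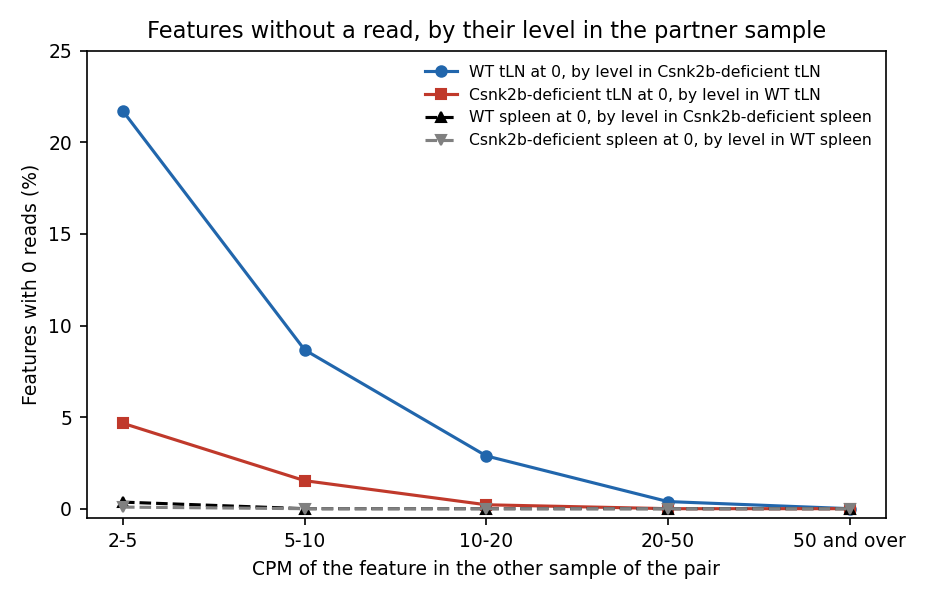
Percent of features with 0 reads in a sample (y axis) against their CPM in the other sample of the same tissue (x axis, 5 level ranges), 1 line per sample. The WT tLN line starts at 21.7% for features at 2 to 5 CPM and lies above the Csnk2b-deficient tLN line up to 20 to 50 CPM, while both spleen lines stay at or below 0.358%.

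Among the 10403 features, 791 (7.60%) were higher and 468 (4.50%) were lower in the Csnk2b-deficient tLN sample. By the same rule the spleen pair gave 89 higher (0.796%) and 41 lower (0.367%) of 11181. The features called higher in tLN were mostly weakly expressed in WT: their median level was 1.95 CPM in WT and 16.6 CPM in the Csnk2b-deficient sample, and 420 of them (53.1%) had fewer than 10 reads in 1 of the samples. Those called lower had medians of 18.0 and 3.50 CPM, and 181 (38.7%) had fewer than 10 reads in 1 sample. Features that were not called showed such low counts in 3.86% of cases. When at least 10 reads were asked for in each sample, a rule added after the values were seen, 371 features were higher and 287 lower of 9449.

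Of the tested features, 192 had no read in WT tLN and 22 had none in Csnk2b-deficient tLN, against 2 and 0 in the spleen pair. For a feature with no read in 1 sample, the minimum of 20 reads by itself puts the whole interval beyond 2-fold. Its call therefore follows from the filter. Of the 192, 152 were measured in the spleen, where the median levels were 3.54 CPM in WT and 4.14 CPM in the Csnk2b-deficient sample, 103 had at least 20 reads in both spleen samples, and 8 were called higher there. The gene groups below are also counted without features of few reads where that changed their count by over 1.5 times. Every count of calls in a group is to be read beside the 7.60% higher and 4.50% lower over all features. Counts with at least 10 reads in each sample are to be read beside the 371 higher and 287 lower of 9449.

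**Figure D2:**
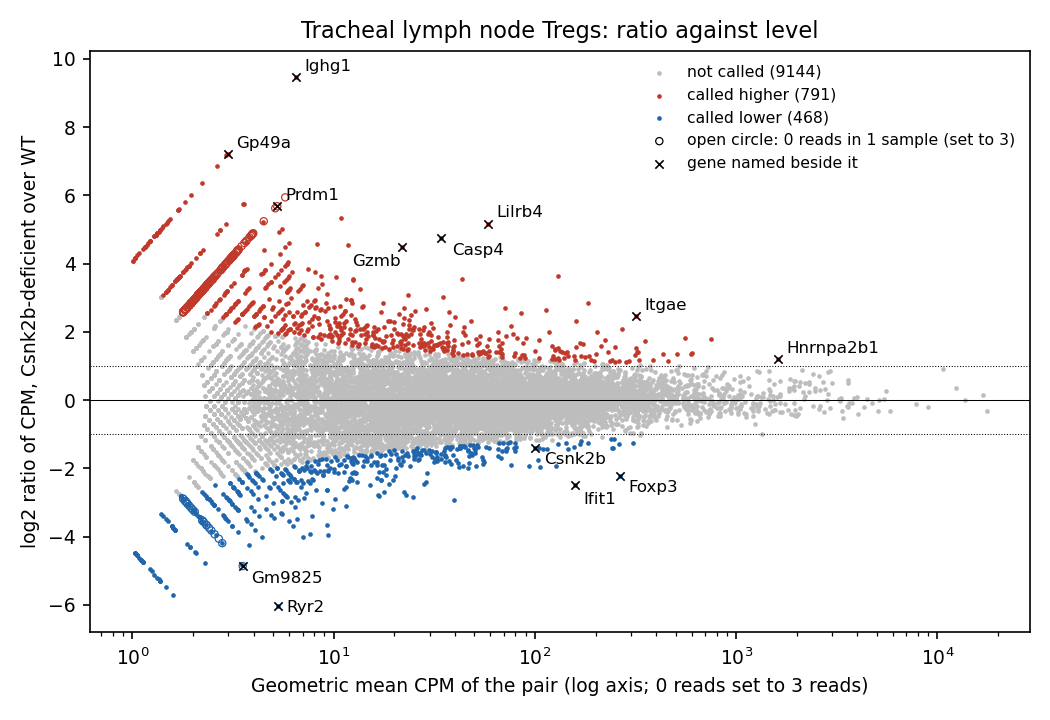
log2 ratio of CPM, Csnk2b-deficient over WT (y axis), against the geometric mean CPM of the tLN pair (x axis, log scale), 1 point per feature, with called features in colour and dotted lines at 2-fold. The 791 higher and 468 lower features spread most at low levels, where single reads form diagonal lines, while Itgae, Hnrnpa2b1, Foxp3, Ifit1 and Csnk2b lie among well-covered features.

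The targeted gene was lower, but its transcript was still present. Csnk2b (mm9 chr17:35253141-35258998) had 667 reads in WT tLN and 283 in Csnk2b-deficient tLN, or 163 and 61.9 CPM. This is 2.63-fold lower (interval 2.28 to 3.03). The spleen samples had 649 and 148 reads. Gpank1, whose annotated span overlaps that of Csnk2b, had 34 and 5 reads in the tLN pair and was called lower in both tissues. The strand setting of the counting is unknown here, so reads of these overlapping genes cannot be told apart.

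Neither catalytic subunit was called. Csnk2a1 had 504 and 439 reads (ratio 0.781, interval 0.686 to 0.890), and Csnk2a2 had 126 and 76 reads (0.541, interval 0.402 to 0.725). Both intervals lay below 1 in the tLN pair. In the spleen the log2 ratios of these subunits were 0.01 and 0.03.

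The cells of both samples carried the markers of Tregs. All 10 T cell and Treg markers were detected in each tLN sample, with summed levels of 12115 CPM in WT and 12709 CPM in the Csnk2b-deficient sample. Il2ra, the high-affinity interleukin-2 receptor chain, stood at 982 and 1116 CPM, and Ctla4, an inhibitory receptor central to Treg function, at 693 and 723 CPM. Ikzf2, which encodes the Treg factor Helios, stood at 1355 and 1274 CPM.

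Foxp3 was the exception within this group. It had 2334 reads in WT tLN and 562 in Csnk2b-deficient tLN, which is 569 and 123 CPM and 4.63-fold lower (interval 4.22 to 5.09). Of the reads of the pair, 19.3% were uniquely placed. By these, with 340 reads in WT and 219 in Csnk2b-deficient tLN and a ratio of 0.577, Foxp3 was not called. Its annotated span (mm9 chrX:7156802-7172369) overlaps Ppp1r3f, 4930524L23Rik and Ccdc22. In the spleen the counts were 6395 and 2160 in all, and 1633 and 773 uniquely placed. Fewer Foxp3 transcripts per cell and fewer cells that express the gene cannot be told apart in bulk RNA. The part of reads that were not uniquely placed, or that came from the overlapping genes, was not tested.

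Of 20 genes of the core Treg signature, 2 were lower, 0 were higher, and the median log2 ratio was -0.08, beside -0.01 over all features. The other gene called was Plagl1, a zinc finger factor, with 158 reads in WT and 39 in the Csnk2b-deficient sample (4.52-fold lower, interval 3.16 to 6.59). Tnfrsf4 (OX40) had 2698 and 3041 CPM and Tnfrsf18 (GITR) 1230 and 1272 CPM. Nt5e, the ectonucleotidase CD73, had the highest ratio of the group at a log2 of 0.65 and was not called.

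The inhibitory receptor gene Lilrb4 had the highest ratio of all features with at least 10 reads in each tLN sample. Lilrb4 (mm9 chr10:51200446-51216419) had 40 reads in WT tLN and 1600 in Csnk2b-deficient tLN, or 9.75 and 350 CPM, which is 35.9-fold higher (interval 26.2 to 50.4). The spleen samples stood at 14.4 and 170 CPM. Gp49a, its paralog at an overlapping annotated position, had 1 read in WT tLN and 165 in the Csnk2b-deficient sample, a ratio of 148 with an interval of 26.2 to 5881. Uniquely placed reads were 30 and 1207 for Lilrb4 and 0 and 121 for Gp49a, but because the genes are near-identical and overlap, the split between them is uncertain.

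Within the list of inhibitory receptors and ligands, 5 of 15 measured members were higher and 0 were lower, with a median log2 ratio of 0.55. Lilrb4 and Gp49a, between which the split of reads is uncertain, count as separate members among the 5. Tigit, which competes for CD155 on antigen-presenting cells, had 821 reads in WT and 2438 in the Csnk2b-deficient sample (2.66-fold, interval 2.46 to 2.89). Klrg1, a receptor of differentiated effector cells, had 360 and 1039 reads (2.59-fold, interval 2.29 to 2.93). Havcr2 (TIM-3) had 1 and 24 reads, a ratio of 21.5 with an interval of 3.51 to 885. Pdcd1, which encodes PD-1, stood at 476 and 508 CPM and was not called. With at least 10 reads in each sample, 3 of 13 members were higher, so the calls of Havcr2 and Gp49a each rest on a WT count of 1.

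Receptors of the interleukin-1 family formed a group in which every called member was higher. Of 7 measured members, 4 were higher, 0 were lower, and the other 3 had ratios above 1. Il1rl1, the receptor for interleukin-33 (ST2), had 50 reads in WT tLN and 456 in Csnk2b-deficient tLN, or 12.2 and 99.7 CPM (8.18-fold, interval 6.10 to 11.2). The chains of the interleukin-18 receptor were higher together. Il18r1 had 195 and 775 reads (3.57-fold, interval 3.04 to 4.19). Il18rap had 86 and 425 reads (4.43-fold, interval 3.51 to 5.66).

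Il1r2, the decoy receptor that binds interleukin-1 without signalling, had 540 and 2556 reads (4.25-fold, interval 3.87 to 4.67). The 3 members that were not called were Il1rap, the shared accessory chain (90 and 193 reads), Il1rn, the receptor antagonist (33 and 52 reads), and Sigirr, a negative regulator (862 and 1157 reads). The 4 called genes were also called higher in the spleen pair, with log2 ratios of 1.58 for Il1rl1, 1.86 for Il18r1, 2.28 for Il18rap and 2.00 for Il1r2. In tLN the corresponding values were 3.03, 1.83, 2.15 and 2.09.

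Effector Treg genes were higher in part in the Csnk2b-deficient tLN sample. Of 28 measured, 14 were higher, 0 were lower, and the median log2 ratio was 1.23, against 6 higher of 30 and a median of 0.61 in the spleen. Itgae, an integrin chain (CD103) with which lymphocytes hold on to epithelial cells, had 554 reads in WT and 3419 in the Csnk2b-deficient sample, or 135 and 748 CPM (5.54-fold, interval 5.06 to 6.07). Ahr, a ligand-activated transcription factor of barrier-tissue lymphocytes, had 72 and 368 reads (4.58-fold, interval 3.55 to 5.99). Id2, an inhibitor of E proteins, had 518 and 1463 reads (2.53-fold, interval 2.29 to 2.81).

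Some regulators of the effector state did not follow. Irf4 had 518 reads in WT and 375 in the Csnk2b-deficient sample, Batf 669 and 839, and Gata3 537 and 625, and none was called. Icos, a costimulatory receptor, stood at 655 and 1159 CPM (ratio 1.77, interval 1.69 to 1.86), short of the 2-fold limit. Prdm1, which encodes Blimp-1, had 0 reads in WT tLN and 172 in Csnk2b-deficient tLN, which is 51.4-fold against the floor of 3 reads, with 41.4-fold as the lower limit of its interval. In the spleen it had 452 and 302 reads, or 57.2 and 52.1 CPM, so the gene was well covered in the WT spleen sample. Blimp-1 is also the master factor of plasma cells, whose transcripts are described below, and their part in the Prdm1 count was not tested.

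**Figure D3:**
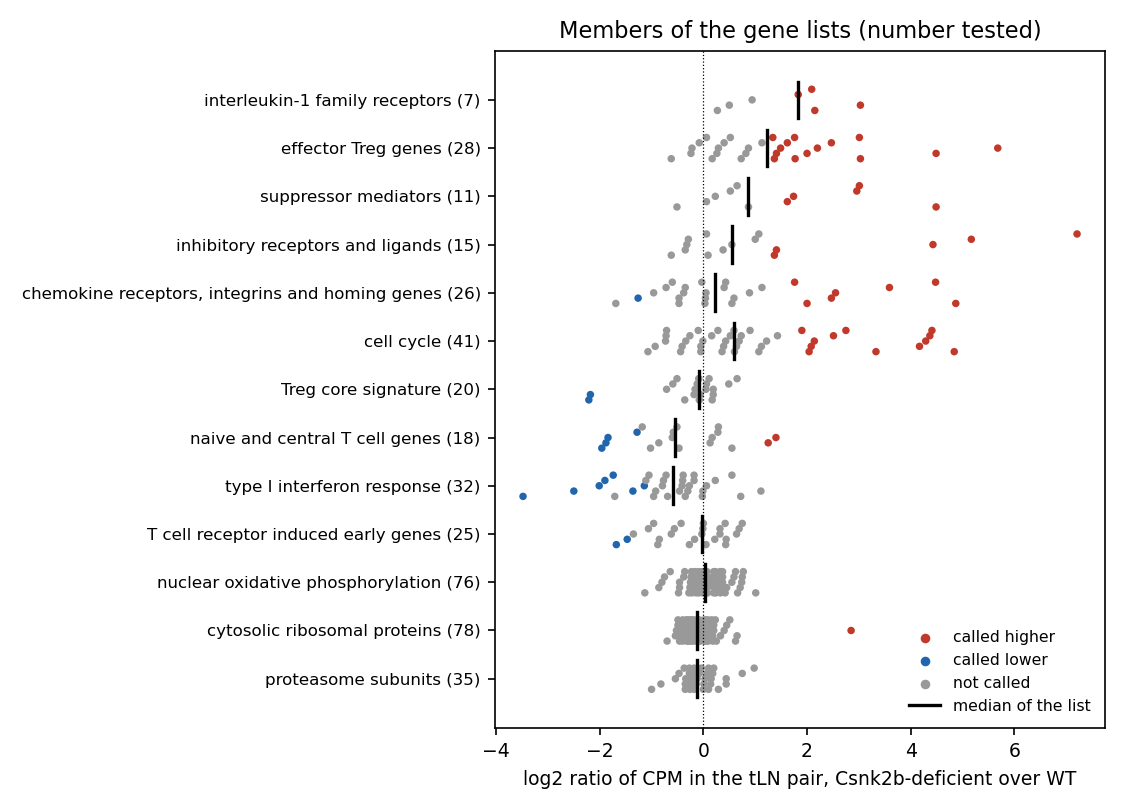
log2 ratio of CPM in the tLN pair (x axis), 1 point per measured member of 13 gene lists (rows, number tested in brackets), coloured by call, with a black bar at each list's median and a dotted line at the median of all features. The interleukin-1 family receptors and effector Treg genes lie to the right with medians of 1.83 and 1.23, and the type I interferon genes lie to the left with a median of -0.58.

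Genes of suppressor function were in part higher, 5 of 11 measured and 0 lower, with a median log2 ratio of 0.87. Gzmb, the cytotoxic protease granzyme B, had 19 reads in WT and 476 in the Csnk2b-deficient sample (22.5-fold, interval 14.2 to 37.7), and in the spleen its CPM were 13.2 and 32.8, without a call. Penk, which encodes the precursor of enkephalins, had 790 and 2949 reads (3.35-fold, interval 3.09 to 3.63). Ebi3, a subunit of interleukin-35 and interleukin-27, had 64 and 219 reads (3.07-fold, interval 2.31 to 4.12).

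The other members of the suppressor list are less firm. Prf1, the pore-forming protein perforin, had 0 and 26 reads. Fgl2 had 3 and 27 reads, but only 0 and 3 of these were uniquely placed. By unique reads its log2 ratio was -0.16, with the 0 set to the floor of 3 reads. Il10 had 45 and 72 reads, Lgals1 had 237 and 432 CPM, and neither was called. With at least 10 reads in each sample 3 of 9 members were higher.

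Homing receptors were higher in part. Of 26 chemokine receptors, integrins and homing genes, 7 were higher and 1 was lower, with a median log2 ratio of 0.23. Over all features 7.60% were higher and 4.50% lower, so 1 lower of 26 lies near that share. Cxcr3, a receptor for interferon-induced chemokines, had 418 reads in WT and 1858 in the Csnk2b-deficient sample (3.99-fold, interval 3.58 to 4.44). Gpr15, a receptor for homing to the gut, had 145 and 947 reads (5.86-fold, interval 4.91 to 7.03). Ccr2 had 147 and 555 reads (3.39-fold, interval 2.82 to 4.09).

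Further calls in that list rest on few WT reads, such as those of Cxcr6 with 5 and 124 reads and Gpr183 with 7 and 94. Only 1 and 17 of the Cxcr6 reads were uniquely placed. The gene called lower was Ccr6, the receptor for CCL20, with 1167 and 543 reads (2.40-fold lower, interval 2.16 to 2.66). Ccr8 had 925 and 625 reads and was not called. With at least 10 reads in each sample 4 of 22 were higher and 1 was lower.

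T helper lineage genes were called in both directions, in part from few reads. Over all features 7.60% were higher and 4.50% lower. Of 9 measured Th1 genes, 2 were higher, among them Cxcr3. Of 8 Th2 genes, Il4 (7 and 61 reads, 7.82-fold, interval 3.57 to 20.3) and Epas1 (0 and 30 reads) were higher, and Pparg (42 and 5 reads) was lower. Of 7 Th17 and follicular helper genes, only Ccr6 was called. With at least 10 reads in each sample, 1 of 8 Th1 genes was higher and 0 of 5 Th2 genes were called. Ifng had 10 and 23 reads, and Il5, Il13 and Il17a had no read in either tLN sample, which by counting error alone allows up to 0.731 CPM in WT and 0.656 CPM in the Csnk2b-deficient sample. It covers no more than that, and 21.7% of the features at 2 to 5 CPM in Csnk2b-deficient tLN had no read in WT tLN. By whole-gene reads Il4, whose annotated span overlaps Kif3a, had 54 and 87, a log2 ratio of 0.51, and was not called. Il4 was the only gene called among 9 effector cytokines and TNF ligands, and with at least 10 reads in each sample 0 of 8 were called.

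Of 13 TNF receptor family genes, 2 were higher and 0 were lower: Tnfrsf26 had 332 and 1012 reads (2.73-fold, interval 2.41 to 3.10), and Cd40 had 3 and 27. Among the 11 with at least 10 reads in each sample, 1 (Tnfrsf26) was higher. The share of all features called higher was 7.60%, or 371 of 9449 with at least 10 reads in each sample. Casp4 and Casp1, which encode inflammatory caspases and were picked with their values known, were called higher in both tissues. Casp4, the gene of caspase-11, which senses cytosolic lipopolysaccharide, had 27 reads in WT tLN and 812 in Csnk2b-deficient tLN (27.0-fold, interval 18.4 to 41.2). Casp1 had 308 and 960 reads (2.80-fold, interval 2.46 to 3.19). In the spleen the log2 ratios were 1.38 and 1.61.

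**Figure D4:**
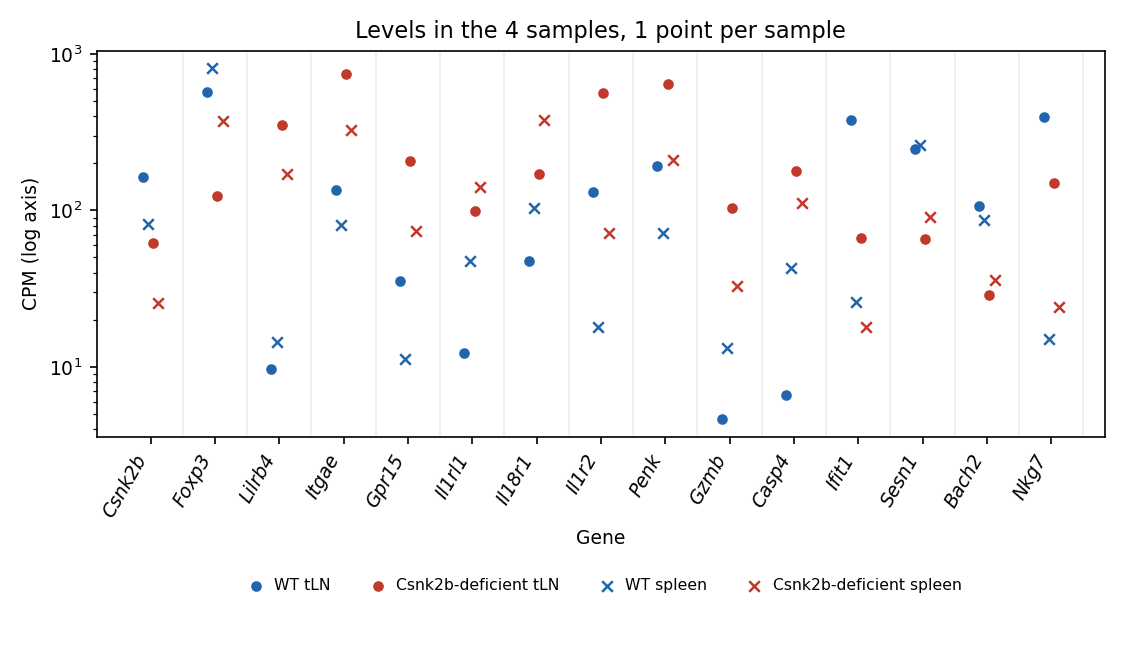
CPM (y axis, log scale) of 15 genes (x axis) in each of the 4 samples, 1 point per sample, with circles for tLN and crosses for spleen, blue for WT and red for Csnk2b-deficient. Lilrb4 stands at 9.75 and 350 CPM in the tLN pair and at 14.4 and 170 CPM in the spleen pair, while Ifit1 (376 and 66.3 CPM in tLN) and Nkg7 (394 and 149 CPM) are separated mainly in tLN.

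The 5 features called higher with the largest difference in CPM, a scale with no correction for gene length, were Hnrnpa2b1, Cd82, Clic1, Itgae and Ctsb. Hnrnpa2b1, an RNA-binding protein of the hnRNP family, stood at 1062 CPM in WT and 2451 CPM in the Csnk2b-deficient sample (2.31-fold, interval 2.23 to 2.39). Cd82, a tetraspanin, stood at 399 and 1393 CPM (3.49-fold, interval 3.30 to 3.69). Clic1, an intracellular chloride channel protein, stood at 296 and 1045 CPM (3.53-fold, interval 3.32 to 3.77). None of these 3 was called in the spleen, where their log2 ratios were 0.11, 0.58 and 0.34.

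Ctsb, the lysosomal protease cathepsin B, stood at 377 and 972 CPM (2.58-fold, interval 2.43 to 2.74) and had a log2 ratio of 0.05 in the spleen. Rpl23a was the only ribosomal protein gene called, with 280 and 2253 reads in all, but 2 and 3 of these were uniquely placed.

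Mitotic genes were higher in part, from low WT counts. Of 41 measured cell cycle genes, 12 were higher, 0 were lower, and the median log2 ratio was 0.60. The spleen pair gave 0 higher of 44 and a median of 0.15. Bub1b, a spindle checkpoint kinase, had 0 reads in WT tLN and 96 in Csnk2b-deficient tLN, Bub1 had 0 and 69, and the mitotic kinesin Kif11 had 0 and 60. Tpx2, a spindle assembly factor, had 5 and 109 reads.

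Better covered members of the cell cycle list differed less. Mki67, the proliferation marker Ki-67, had 148 and 384 reads and was not called, Top2a had 338 and 609, and Pcna, the replication clamp, had 1534 and 1259. With at least 10 reads in each sample, 5 of 33 were higher, namely Ccnb1, Ccnb2, Birc5, Cenpa and Kif20a.

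Among the 468 lower features, several with high WT levels belong to the type I interferon response. Of 32 such genes, 7 were lower, 0 were higher, and the median log2 ratio was -0.58, against 0 lower of 31 and a median of -0.12 in the spleen. Ifit1, which binds foreign RNA ends, had 1542 reads in WT tLN and 303 in Csnk2b-deficient tLN, or 376 and 66.3 CPM (5.67-fold lower, interval 5.01 to 6.44). Ifit3 had 601 and 179 reads (3.74-fold lower, interval 3.16 to 4.45). Usp18, the protease that removes ISG15, had 1510 and 763 reads (2.21-fold lower, interval 2.02 to 2.41).

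The other called members of this list were Oas2, Mx1, Ifih1 and Cmpk2. Oas2, a sensor of double-stranded RNA, had 90 reads in WT and 9 in the Csnk2b-deficient sample, and Mx1, an antiviral GTPase, had 83 and 23. Regulators of the response were not called: Stat2 stood at 70.5 and 62.3 CPM, Irf7 at 31.9 and 33.2 CPM and Irf9 at 482 and 475 CPM. Of the 32 genes, 27 had a ratio below 1. Rnf213, an interferon-inducible ubiquitin ligase outside the list, had 1947 and 901 reads (2.41-fold lower, interval 2.22 to 2.61).

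Genes of naive and central T cells were mixed. Of 18 measured, 4 were lower and 2 were higher, with a median log2 ratio of -0.55. Bach2, a repressor that keeps T cells in a resting state, had 433 reads in WT and 131 in the Csnk2b-deficient sample (3.68-fold lower, interval 3.02 to 4.52). Il6ra had 366 and 114 reads (3.58-fold lower, interval 2.89 to 4.46). Its signalling partner Il6st had 1071 and 493 reads (2.42-fold lower, interval 2.17 to 2.70).

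Ly6c1 was the fourth gene of the list that was lower, with 857 and 246 reads. Opposite to the direction of the list's median, Il7r, the interleukin-7 receptor chain, had 813 and 2394 reads (2.64-fold higher, interval 2.44 to 2.86). Tcf7, which encodes the T cell factor TCF-1, had 473 and 1256 reads (2.38-fold higher, interval 2.14 to 2.65), of which 57 and 168 were uniquely placed.

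Targets of the FOXO factors gave 1 higher (Il7r) and 1 lower of 16, with a median log2 ratio of -0.47. These counts lie near the shares over all features, 7.60% higher and 4.50% lower. The lower gene was Sesn1, a stress-induced inhibitor of mTORC1, with 1018 reads in WT and 299 in the Csnk2b-deficient sample (3.80-fold lower, interval 3.33 to 4.33). It was also lower in the spleen, at 260 and 90.2 CPM. Klf2 had 351 and 216 reads and S1pr1 had 1229 and 2004, and neither was called.

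Early genes induced through the T cell receptor were near balance. Of 25 measured, 2 were lower, 0 were higher, and the median log2 ratio was -0.03. The shares over all features were 4.50% lower and 7.60% higher. Dusp1, a phosphatase of MAP kinases, had 239 and 83 reads (3.21-fold lower, interval 2.49 to 4.17), and Nfkbid, an atypical inhibitor of NF-kappaB, had 191 and 77 (2.77-fold lower, interval 2.11 to 3.65). Cd69 stood at 472 and 488 CPM. Of 19 NF-kappaB subunits and feedback genes, Nfkbid was the only gene called.

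The features farthest below WT were few in reads. Ryr2, a calcium release channel of heart and neurons, had 176 reads in WT tLN and 3 in Csnk2b-deficient tLN, a ratio of 0.0153 with an interval of 0.00312 to 0.0454, and was also lower in the spleen at 70 and 9 reads. Gm9825 had 78 and 0 reads, and 84 and 1 in the spleen. Arhgap20 was lower in both tissues too, with 121 and 9 reads in tLN. Il33, Abcc8, Fhl4, Akap6, Kcnf1, Lcn13, Gm5538 and Gm17408 had 31 to 49 reads in WT tLN and 0 in Csnk2b-deficient tLN, with at most 11 reads in either spleen sample.

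None of 76 nuclear genes of oxidative phosphorylation, 35 proteasome subunits, 20 glycolysis and hypoxia genes, 23 genes of the unfolded protein response, 7 heat shock genes or 10 BCL2 family genes was called. Their median log2 ratios were 0.03, -0.12, 0.41, 0.06, -0.10 and 0.50. With 7.60% of all features higher and 4.50% lower, 0 calls among 7 or 10 genes says little. Among the glycolytic enzymes, Ldha stood at 1782 and 2389 CPM and Pkm2 at 898 and 1315 CPM. The survival factor Bcl2 stood at 346 and 483 CPM, and Mcl1 at 451 and 302 CPM.

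Sterol synthesis genes were called in both directions. Of 22 measured, 2 were lower and 2 were higher, beside 4.50% lower and 7.60% higher over all features. Sqle, an epoxidase of the cholesterol pathway, had 150 reads in WT and 39 in the Csnk2b-deficient sample, and Mvk, mevalonate kinase, had 70 and 11. Idi1, an isomerase of the pathway, was called higher with 35 and 193 reads, but only 0 and 8 of these were uniquely placed. With at least 10 reads in each sample 1 of 21 was higher and 2 were lower.

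Transcripts of other cell types differed between the tLN samples. Of 25 measured immunoglobulin features, 16 were higher and 0 were lower. Of the 7 with at least 10 reads in each sample, 1 (Igkc) was higher. Ighg1, the IgG1 constant region, had 1 read in WT tLN and 786 in Csnk2b-deficient tLN, a ratio of 705 with an interval of 126 to 27884. Igj, the joining chain of secreted antibodies, had 0 and 164 reads, and Igkc, the kappa constant region, had 113 and 827.

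Variable segments gave 113 reads in WT tLN and 1090 in Csnk2b-deficient tLN, against 18 and 12 in the spleen samples. Of 17 measured segments 12 were higher, and 9 had no read in WT tLN. The calls of these 9 follow from the minimum of 20 reads. The most counted was Igkv6-23, with 0 and 126 reads. Ighm, the IgM constant region, was present in all samples, at 1914 and 2790 CPM in tLN and 952 and 871 CPM in the spleen. The 16 higher immunoglobulin features make up 2.02% of the 791 called higher.

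Markers of B and plasma cells outside the immunoglobulin loci did not move together. Of the 9 B cell markers measured, 5 were at 0 in WT tLN, among them Ms4a1 and Pax5, and 1 (Pax5) was at 0 in Csnk2b-deficient tLN. The summed B cell level was 179 CPM in WT and 125 CPM in the Csnk2b-deficient sample, most of it from Cd79b (599 and 412 reads). Of the 5 with enough reads to be tested, Cr2 was higher (0 and 22 reads) and Fcer2a was lower (48 and 13). The 5 plasma cell markers, which include Igj, summed to 202 CPM in WT tLN and 155 CPM in Csnk2b-deficient tLN. Igj, Sdc1 and Tnfrsf17 were at 0 in WT tLN, so the sum there came from Irf4 and Xbp1. Igj itself had 0 reads in WT tLN and 164 in Csnk2b-deficient tLN, against the direction of the sum. Sdc1 had 0 reads and 1 read, and Tnfrsf17 was at 0 in all 4 samples. Of the 5 plasma cell markers, 2 were at 5 CPM or more in both spleen Treg samples as well.

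Myeloid and dendritic cell markers summed to 71.0 CPM in WT tLN and 369 CPM in Csnk2b-deficient tLN, against 18.9 and 18.6 CPM in the spleen samples. Of 14 markers, 6 were at 0 in WT tLN and 0 in Csnk2b-deficient tLN. Of the 8 with enough reads to be tested, 4 were higher and 0 were lower. A ratio above 1 was found for 7 of the 8, and the other had a log2 ratio of -1.69. Lyz2, the macrophage lysozyme, carried most of the sum, with 187 and 1291 reads, while Csf1r had 0 and 38, Cd68 had 0 and 63, and Cd14 had 0 reads and 1 read. The myeloid list was higher in the same sample as Lilrb4, Casp4, Tlr4 (0 and 34 reads) and Ctsb, genes that myeloid cells also express, and its part in their values was not tested. In the spleen pair Lilrb4, Casp4 and Tlr4 were called higher and Ctsb was not.

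Haemoglobin transcripts went the other way. Erythroid and platelet markers summed to 70.2 CPM in WT tLN and 7.22 CPM in Csnk2b-deficient tLN, with 116 and 8 reads of Hba-a2, and to 0.506 and 0.690 CPM in the spleen. The NK cell list summed to 401 and 166 CPM, nearly all of it from Nkg7, a granule protein shared with T cells (1617 and 683 reads), while Ncr1, Klra4, Klra8 and Klre1 had no read in either tLN sample. Of the 4 NK cell markers with enough reads to be tested, Nkg7 was lower, and the other 3 had ratios above 1, with 1 called higher. Epithelial markers summed to 2.68 and 16.2 CPM, of which Epcam had 11 and 56 reads. The CD8 T cell markers summed to 52.4 and 38.9 CPM and the stromal and endothelial markers to 223 and 248 CPM. In WT tLN 9 of the 10 stromal and endothelial markers were at 0, so the sum there came from Pecam1 alone. Of 10 neutrophil and mast cell markers, 9 were at 0 in WT tLN and 8 in Csnk2b-deficient tLN.

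**Figure D5:**
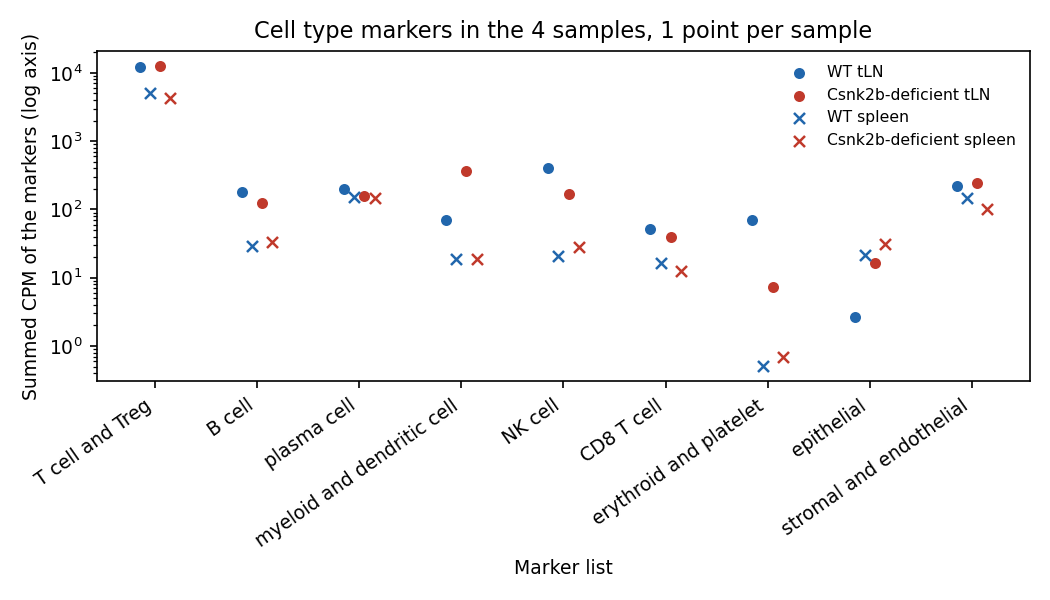
Summed CPM of the markers of 9 cell types (x axis; y axis on a log scale) in the 4 samples, 1 point per sample, with circles for tLN and crosses for spleen, blue for WT and red for Csnk2b-deficient. The T cell and Treg sum is 12115 and 12709 CPM in tLN, the myeloid sum is 71.0 and 369 CPM and the erythroid sum 70.2 and 7.22 CPM.

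The tLN and spleen pairs share no sample, so their calls can be set side by side. The labels do not say whether the cells of both tissues came from the same mice. The TMM factors were also set over all 4 samples, so the pairs are not known to be independent. Of 10000 features measured in both, 35 were higher in both pairs, which is 4.77% of the 734 higher in tLN and 58.3% of the 60 higher in spleen. In the other direction 15 were lower in both, 4.08% of 368 and 46.9% of 32. Of all 10000, 60 (0.600%) were higher and 32 (0.320%) lower in the spleen. Features called higher in tLN had a spleen ratio above 1 in 457 of 734 cases (median log2 0.12), and those called lower had one below 1 in 276 of 368 (median log2 -0.20). Of all 10000, 4647 had a spleen ratio above 1 and 5353 one below 1 (median log2 -0.02).

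The genes that were called in both pairs, named after their values were seen, include several receptors and enzymes beside those above. Kynu, kynureninase of tryptophan breakdown, had 0 reads in WT and 64 in Csnk2b-deficient tLN, and 0 and 28 in the spleen. Sema6d, a semaphorin, had 0 and 61 reads in tLN and 13 and 206 in the spleen. Cldn25, a claudin family gene, stood at 317 and 811 CPM in tLN and 53.6 and 149 CPM in the spleen.

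Ttn, which encodes the giant muscle protein titin, was higher in both tissues, at 36.8 and 456 CPM in tLN (12.4-fold, interval 10.5 to 14.7) and 93.9 and 410 CPM in the spleen. H2-Eb1, a class II MHC chain, had 23 and 134 reads in tLN and 7 and 40 in the spleen. The other class II chains H2-Aa (261 and 337 reads) and H2-Ab1 (49 and 76), and Cd74, the invariant chain (1081 and 2391 reads, ratio 1.98), were not called in tLN. Lower in both were Tlr7, a sensor of single-stranded RNA, with 186 and 32 reads in tLN (6.48-fold lower, interval 4.44 to 9.75), and Ramp1, a co-receptor for the neuropeptide CGRP, with 271 and 42 (7.19-fold lower, interval 5.18 to 10.2). Adcy6, an adenylyl cyclase, had 112 and 25 reads in tLN and 293 and 59 in the spleen.

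Of 791 features called higher, 723 were also at least 2-fold higher by uniquely placed reads with at least 20 such reads, and so were 423 of the 468 called lower in their direction. A call in tLN without a call in spleen does not show that the tissues differ. With 1 sample per genotype and tissue that difference could not be tested.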

How the data were processed

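Tregs of 4 samples were profiled, 1 per genotype and tissue. The labels' protocols name Trizol and TruSeq for samples 1 and 2, and RNeasy micro, SMARTer and Nextera XT for samples 3 and 4. Which tissue each number stands for is not stated. The deposited tables hold read counts per gene feature, in all and uniquely placed, within exons and over the gene, per the file headers. No header or label defines unique reads, so uniquely placed is a reading of that header. Per the submitters' processing notes, CASAVA 1.8.2 was used with mm9, and no source used here names the aligner, annotation or strand setting.

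From 37583 features, 9551 without an exon length were left out. Total exon reads were scaled by TMM factors set over all 4 samples after filterByExpr (edgeR 4.0.16, R 4.3.3). Ratios and Clopper-Pearson 95% intervals were computed with scipy 1.17.1 for features with at least 20 reads in a pair. No count model was fitted, since no group has a second sample. The script was tested on simulated data.

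The comparison, the 26 gene lists and the 11 marker lists were chosen with earlier results of these data known. The genes named are the CK2 subunits, Foxp3, Lilrb4 and Gp49a; the 15 features of each direction whose interval bound nearest to 1 lies farthest from it; up to 4 members of each list; and 5 features of each direction by CPM difference. Other list members, genes called in both tissues and Gpank1, Casp1, Casp4, H2-Eb1, H2-Aa, H2-Ab1, Cd74, Ttn, Tlr7, Ramp1, Igkc and Ighm were named after their values were seen. Alternatives were other scalings, uniquely placed or whole-gene reads, other minimums, a 3-fold limit and a 99% interval. A few members of the lists are counted but not reported by name here.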

Additional observations from a re-analysis of the deposited data

Results flagged for a closer look

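Rpsa-ps10, a ribosomal protein pseudogene, was the only feature called in opposite directions in the tissues. Its log2 ratio was 1.62 in the tLN pair (75 and 257 reads) and -2.30 in the spleen pair (557 and 83 reads). Only 1 and 5 of its tLN reads were uniquely placed, and by these it was not called. The difference between the tissues was not tested.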

How the results depend on the processing

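Depth and the single sample per genotype limit every value above, since intervals cover counting error only. The 791 higher and 468 lower features of the tLN pair became 520 higher with at least 50 reads over the pair, 443 and 171 with a 3-fold limit, and 371 and 287 with at least 10 reads in each sample, an alternative added after the values were seen. The spleen counts of 89 and 41 became 33 and 11 with a 3-fold limit. Its lower count was 27 by uniquely placed reads, 27 with a 99% interval and 25 with at least 10 reads in each sample. In each case but that of uniquely placed reads the alternative asks for more of a call. In the other 42 of 52 recounts the number stayed within 1.5 times. Across the other scalings higher features made up 58.2% to 64.5% of the calls in tLN, against 62.8%, and the median log2 ratio of all features lay between -0.07 and 0.02.

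Of 852 log2 ratios of named genes under an alternative, 1 changed sign: Fgl2 had -0.16 by uniquely placed reads. It had 0 such reads in WT tLN and 3 in Csnk2b-deficient tLN. The 0 was set to the floor of 3 reads, so the sign follows from the floor and the library scaling. Among others, Foxp3, Cxcr6, Rpl23a, Idi1, Rpsa-ps10, Gpank1 and Fgl2 lost their call by uniquely placed reads. Enox1, Il6ra, Pparg, Il4, Cd40 and Nfkbid lost it by whole-gene reads. Csnk2b lost its call only under the 3-fold limit. No paired analysis was possible because each pair holds 1 sample per genotype.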
